A study of Homo sapiens with 2 samples.

Results

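The CLK and SRPK genes encode the protein kinases that phosphorylate serine/arginine-rich proteins (SR proteins), the splicing regulators that bind exons and recruit the spliceosome. SRPK1 and SRPK2 act mainly in the cytoplasm, where they phosphorylate the arginine/serine-rich domain of SR proteins and so promote their import into the nucleus. CLK1, CLK2, CLK3 and CLK4 act in the nucleus, where further phosphorylation releases SR proteins from nuclear speckles. The CLK genes are also known as targets of their own pathway: their pre-mRNA is made as a full-length form, as a form without exon 4 that loses the kinase domain through a frameshift, and as a form in which introns next to exon 4 are retained in the nucleus.

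The expression of these 6 kinase genes was measured in Huh-7 cells, a human hepatocellular carcinoma line. The control culture had 0.1% DMSO for 24 h and the treated culture had BS008, an amiloride derivative, at 0.1 mM for the same time. Each condition had 1 library, made from total RNA with a kit for mRNA, so no difference below has a replicate check and no test was made. The study asked whether BS008 alters splicing across the transcriptome, and SRPK1 and SRPK2 were among the proteins it examined. The files list reads for 239322 exons by position on hg19, and the members are the 97 exon rows that lie on the right strand within the bounds of CLK1 (12 rows), CLK2 (13), CLK3 (19), CLK4 (14), SRPK1 (15) and SRPK2 (24). The rows are numbered here from the 5′ end of each gene. No row of the 6 genes overlaps another, 1 row of SRPK2 had no read in either library, and 87 of the 97 rows had at least 10 reads in 1 of the libraries. In each of the 6 genes, at least 83.3% of the rows had the length of an exon that GENCODE lists for that gene.

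The depth was 55476654 reads on exons with DMSO and 53578432 with BS008, and mitochondrial exons held 11.8% and 13.1% of them, respectively. The hepatocyte genes ALB (4940 and 5755 CPM, the counts scaled to the total of each library), AFP (2403 and 1643) and APOB (8631 and 3983) were abundant in both libraries. The leukocyte gene PTPRC had 0 reads in both, and the fibroblast collagen gene COL1A1 had 14 and 6. In bulk RNA, fewer cells that express a gene and less RNA per cell cannot be told apart.

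Some of the sequences behind the measurements are given first, because they show which exons of these close relatives the reads can separate. Exon 4, the regulated exon, is 91 bases long in CLK1 and CLK4, 88 in CLK2 and 97 in CLK3. All 4 lengths leave a remainder of 1 on division by 3, so its loss shifts the reading frame. The sequences below are those of the coding exons in GENCODE release 29 transcripts (GRCh38). In CLK1 and CLK4 the capitals mark the 6 bases that differ between the 2 genes, which are 93.4% identical in this exon. In CLK2 the capitals mark the 3 bases at the 5′ end that are absent from a shorter form of 85 bases in the annotation.
CLK1 exon 4: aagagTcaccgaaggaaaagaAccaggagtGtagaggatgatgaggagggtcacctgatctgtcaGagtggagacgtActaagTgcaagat
CLK4 exon 4: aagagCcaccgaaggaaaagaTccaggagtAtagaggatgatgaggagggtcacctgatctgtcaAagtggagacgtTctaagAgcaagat
CLK2 exon 4: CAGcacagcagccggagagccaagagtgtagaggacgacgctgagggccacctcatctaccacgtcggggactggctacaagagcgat

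Exon lengths are shared within each family. From exon 7 to exon 12, the exons of CLK1, CLK2, CLK3 and CLK4 are 167, 95, 130, 83, 80 and 91 bases long in each of the 4 genes. Over the 10 exons of equal length, CLK1 and CLK4 were 75.9% identical, and their longest identical stretch was 34 bases, in exon 4. SRPK1 and SRPK2 have 10 exons of equal length as well, which were 72.5% identical with a longest stretch of 23 bases. They include an exon of 26 bases, shown here because it is the shortest exon of either gene that is listed on a row of its own, with capitals where the 2 genes differ.
SRPK1 exon 9: tCagtacTgctccCcagcCTaaaccA
SRPK2 exon 10: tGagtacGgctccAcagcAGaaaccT

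Stretches of 50 bases from the full-length transcript of each gene were then searched for in the transcripts of all other genes. Intron bases in the long rows described below are not covered by these counts. Nor are other rows, or parts of rows, that lie outside the full-length transcript of the gene. CLK1, CLK4 and SRPK1 shared 0 of the stretches. CLK2 shared 129 of 2117 (6.09%) with its pseudogene CLK2P1, most of all in exon 8, where 52.1% of the stretches that touch the exon were shared. SRPK2 shared 75 of 2511 (2.99%) with its pseudogene SRPK2P, in exons 5, 9, 10 and 11. CLK3 shared 60 of 2572 (2.33%) with AL158077.1, all of them in its last exon. Reads on these exons are uncertain, because the read length and the treatment of reads with several matches are not given in the sources used here. Exon 4 of each CLK gene shared 0 stretches.

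CLK1, CLK2 and CLK3 were each near or above 2-fold higher with BS008, CLK4 was about 1.5-fold higher, SRPK1 was lower and SRPK2 differed little in its total. CLK3, a nuclear kinase of SR proteins like the other CLK members, had the largest difference in summed reads. It had 2820 reads with DMSO and 6265 with BS008, or 50.8 and 116.9 CPM (2.30-fold higher, 95% exact interval 2.20 to 2.41). This interval and those below cover counting error only. For CLK1, which is known to act on the splicing of its own exon 4, 2404 and 4821 reads were counted, or 43.3 and 90.0 CPM (2.08-fold higher, 1.98 to 2.18). CLK2 had 2461 reads with DMSO and 4593 with BS008, or 44.4 and 85.7 CPM (1.93-fold higher, 1.84 to 2.03). These 3 genes had similar CPM with DMSO and all were higher in the BS008 library.

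CLK4, the closest relative of CLK1 in these sequences, was the least abundant of the 6 genes. It had 890 reads with DMSO and 1303 with BS008, or 16.04 and 24.3 CPM (1.52-fold higher, 1.39 to 1.65). SRPK1 was the one member that was lower with BS008. It had 9062 reads with DMSO and 5540 with BS008, or 163.3 and 103.4 CPM, which is 1.58-fold lower (1.53 to 1.63). SRPK2 had 2514 and 2664 reads, or 45.3 and 49.7 CPM (1.10-fold higher, 1.04 to 1.16). The 2 SRPK genes therefore differed in opposite directions, and the difference of SRPK2 was small.

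**Figure D1:**
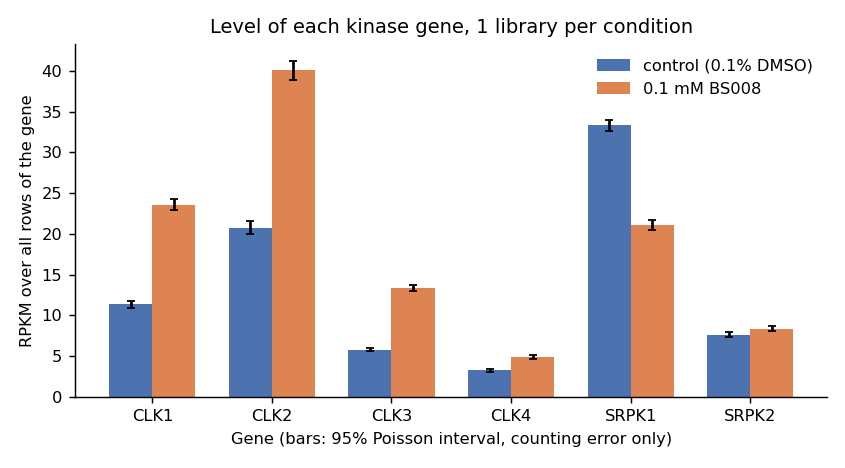
Level of each kinase gene in RPKM (CPM per kilobase of all its exon rows; y axis) in control (blue) and BS008-treated cells (orange), with 95% Poisson intervals for counting error and 1 library for each condition. SRPK1 was the highest bar with DMSO (33.3) and CLK2 with BS008 (40.1).

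Per kilobase, the order of the 6 genes was not the same in the 2 libraries. With DMSO SRPK1 was highest at 33.3 RPKM (95% Poisson interval 32.6 to 34.0), followed by CLK2 at 20.7 (19.9 to 21.6), CLK1 at 11.4 (10.9 to 11.8), SRPK2 at 7.60 (7.30 to 7.90), CLK3 at 5.80 (5.59 to 6.02) and CLK4 at 3.23 (3.02 to 3.45). With BS008 CLK2 was highest at 40.1 RPKM (38.9 to 41.3), and CLK1 at 23.6 (22.9 to 24.2) was above SRPK1 at 21.1 (20.5 to 21.7). They were followed by CLK3 at 13.3 (13.0 to 13.7), SRPK2 at 8.34 (8.02 to 8.66) and CLK4 at 4.90 (4.63 to 5.17). Neighbours in either order had intervals that did not overlap. The values of CLK1, CLK3 and CLK4 are lowered by long rows that span introns, as described below. Those of CLK1, CLK3 and SRPK2 are also lowered by rows with few reads. The order therefore depends on the rows that are summed. With DMSO, the rows of internal exons of CLK3 nearest their median were exons 12 and 8, at 42.8 and 45.7 RPKM. In SRPK1 they were exons 5 and 12, at 33.2 and 40.5, so CLK3 was above SRPK1 by this measure.

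The single exons were compared next by the log2 ratio of CPM values with a pseudocount of 0.5, as for the whole table. Of the 87 rows with at least 10 reads, 22 were at least 2-fold higher with BS008, against 3.73% of the 131330 exons of the whole table. They were 10 of 12 rows of CLK1, 2 of 13 of CLK2, 9 of 14 of CLK3 and 1 of 12 of CLK4. Rows of the same gene come largely from the same transcripts, so they are not separate observations. On this scale no row of the 6 genes was at least 2-fold lower (0 of 87, against 3.79% of all exons). The pseudocount draws rows with few reads towards no difference, and without it row 4 of CLK4 (59 and 27 reads) and row 4 of CLK3 (22 and 8 reads, 2.66-fold lower, 1.14 to 6.90) were past 2-fold. At 1.5-fold, 44 rows were higher (11.5% of all exons) and 11 were lower (13.9%). All 13 rows of CLK2 and 11 of 12 rows of CLK1 were among the higher ones, and 9 of the 11 lower rows belonged to SRPK1. The median log2 ratio was 1.16 over the rows of CLK1, 0.93 for CLK2, 1.07 for CLK3, 0.56 for CLK4, -0.65 for SRPK1 and 0.09 for SRPK2, against -0.04 over all exons.

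**Figure D2:**
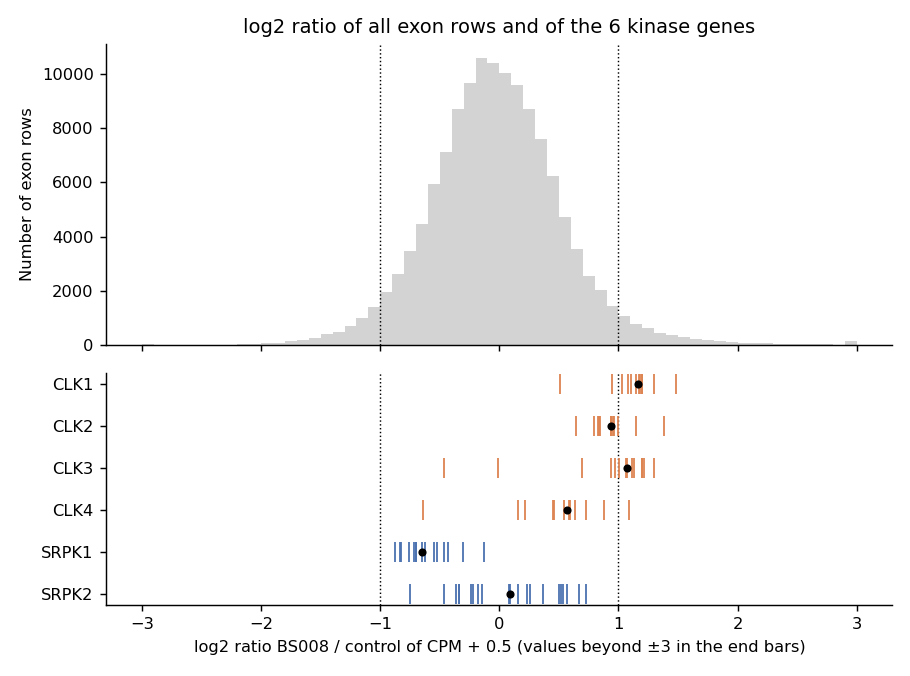
Top, number of exon rows (y axis) by log2 ratio of BS008 to control for all 131330 exons with at least 10 reads in either library. Bottom, each row of the 6 kinase genes as a tick, with the median as a black dot and dotted lines at 2-fold; the rows of CLK1 have a median of 1.16 and those of SRPK1 of -0.65.

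Within CLK1 the rows did not move by the same factor. Row 4 (chromosome 2, 201724403 to 201726189, minus strand, 1787 bases) has the length of an exon of a retained-intron transcript that holds exons 3, 4 and 5 with the introns between them, of which 387 bases are exon and 1400 are intron. It had 972 reads with DMSO and 1348 with BS008 (1.44-fold higher, 1.32 to 1.56). This was the smallest fold of the 12 rows. Its share of all CLK1 reads was 40.4% (95% Wilson interval 38.5 to 42.4%) with DMSO and 28.0% (26.7 to 29.2%) with BS008, a difference of -12.5 percentage points (-14.8 to -10.1). Since exon 4 has no row of its own, these counts cannot separate its inclusion from intron retention.

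Outside row 4, the CLK1 rows were 2.05- to 7.25-fold higher. Without it, the gene as a whole was 2.51-fold higher. Reads per kilobase in row 4 were 0.359 times the median of the CLK1 rows matched to internal exons with DMSO and 0.211 times with BS008. The next exon upstream, row 3 (exon 2, 201726425 to 201726585), had 121 and 374 reads (3.20-fold higher, 2.60 to 3.96), and its share of the gene went from 5.03% (4.23 to 5.98%) to 7.76% (7.04 to 8.55%). The row downstream, row 5 (201722696 to 201722835), had 222 and 439 reads (2.05-fold higher, 1.74 to 2.42). The rows on either side of row 4 thus had larger folds than row 4 itself.

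The 2 rows at the 5′ end of CLK1, which adjoin each other, were low in both libraries. Row 1 (201729287 to 201729467) had 38 reads with DMSO and 119 with BS008 (3.24-fold higher, 2.23 to 4.80). Row 2, with the 461 bases of exon 1, had 6 and 42 reads (7.25-fold higher, 3.07 to 20.9). Their intervals overlap, so their folds could not be told apart at this depth. The row with the most reads per length was row 10 (exon 11, 201719339 to 201719418), with 48.2 RPKM with DMSO and 114.6 with BS008 (2.38-fold higher, 2.02 to 2.80). The other rows of CLK1 called at 2-fold were those of exon 7 (row 6, 112 and 305 reads), exon 8 (row 7, 97 and 245), exon 9 (row 8, 197 and 465), exon 10 (row 9, 197 and 440) and exon 12 (row 11, 172 and 415), which were 2.31- to 2.82-fold higher. The last row (201717732 to 201718172) had 56 and 138 reads (2.55-fold higher, 1.86 to 3.55).

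CLK2 is the one CLK gene whose exon 4 is listed by itself. It is row 4 (chromosome 1, 155238499 to 155238586, minus strand), with the length of the 88-base sequence shown above. It had 84 reads with DMSO and 254 with BS008 (3.13-fold higher, 2.44 to 4.06), the largest fold of the 13 rows. The exon before it (exon 3, 155239279 to 155239507) had 255 and 496 reads (2.01-fold higher, 1.73 to 2.35). The exon after it (exon 5, 155238084 to 155238150) had 116 and 221 (1.97-fold higher, 1.57 to 2.49). The fold of exon 4 was larger than those of the exons on either side of it, although its interval met that of exon 5 at the edge.

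As a share of all CLK2 reads, exon 4 held 3.41% (2.77 to 4.21%) with DMSO and 5.53% (4.91 to 6.23%) with BS008, a difference of 2.12 percentage points (1.11 to 3.07). Among the reads on exons 3, 4 and 5 alone, it held 18.5% with DMSO and 26.2% with BS008. This difference of 7.70 points is below the 10 points at which an exon was called against its neighbours. Per kilobase, exon 4 was at 0.857 times the median of the matched internal rows with DMSO and 1.10 times with BS008. Exon 5 had the most reads per length of CLK2 in both libraries (31.2 and 61.6 RPKM).

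The other end of the CLK2 transcript differed as well. The last row (155232660 to 155233191, 532 bases) had 861 and 1310 reads (1.58-fold higher, 1.44 to 1.72), the smallest fold of the gene. Its share of the reads was 35.0% (33.1 to 36.9%) with DMSO and 28.5% (27.2 to 29.8%) with BS008. Without this row, CLK2 was 2.12-fold higher. Row 12 (exon 12, 155233741 to 155233831), just before it, had 105 and 257 reads (2.53-fold higher, 2.01 to 3.21). It is 1 of the 2 rows of CLK2, with exon 4, that were at least 2-fold higher with the pseudocount. The rows of exons 7 to 11, which hold most of the stretches shared with the pseudogene, were 1.91- to 2.18-fold higher.

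**Figure D3:**
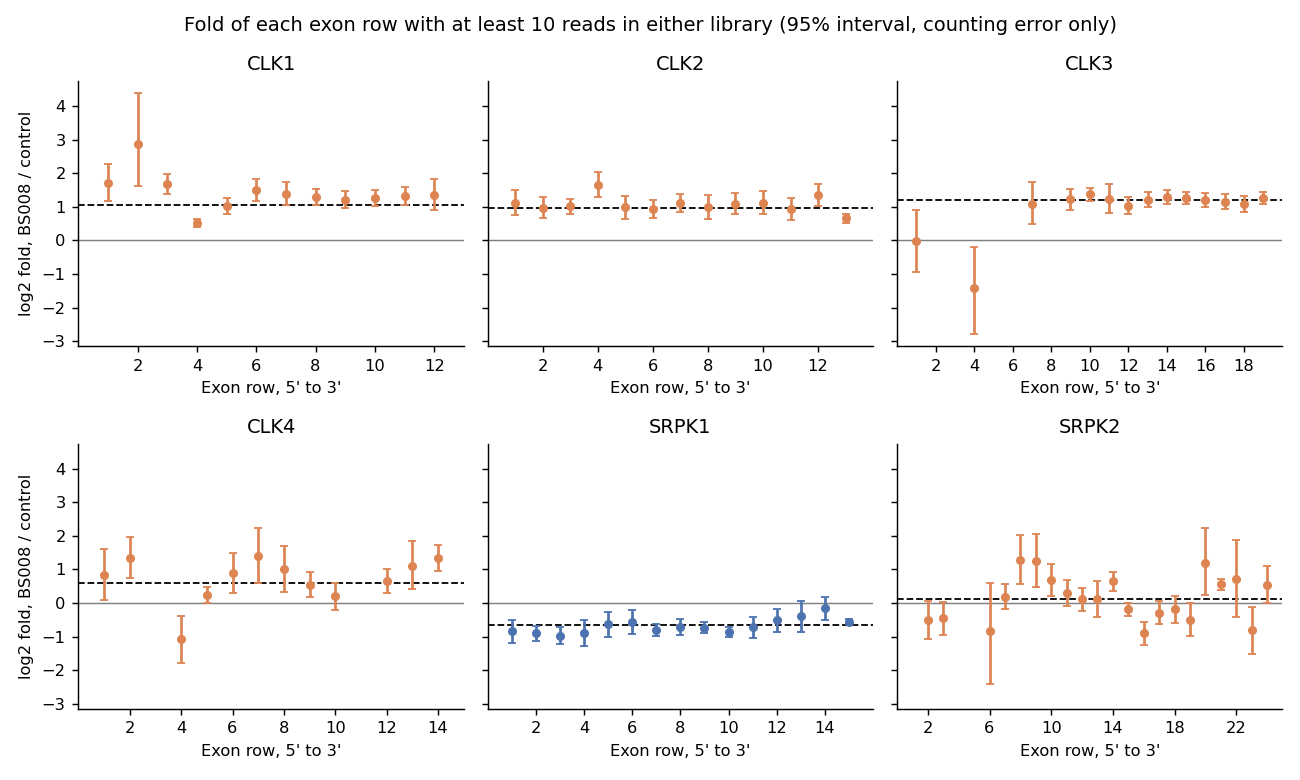
log2 fold of BS008 over control without a pseudocount (y axis) for each exon row with at least 10 reads, from 5′ to 3′ (x axis), in the 6 genes (blue for SRPK1, the gene with a lower total, and orange for the others), with 95% exact intervals for counting error; the dashed line is the fold of the gene's summed reads. CLK1 row 4, CLK2 rows 4 and 13, and CLK4 row 4 lie away from their line, and most rows of CLK3 lie on it.

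Most rows of CLK3 differed by a similar factor. Its first 6 rows lie upstream of the exons of the full-length transcript, and 4 of them have the lengths of exons in a non-coding transcript that GENCODE assigns to CLK3. Together they had 58 reads with DMSO and 34 with BS008, which is 1.65-fold lower (1.06 to 2.60). The other 13 rows had 2762 and 6231 reads (2.34-fold higher, 2.23 to 2.44). The upstream rows thus differed in the other direction, on few reads.

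Among those 13 rows of CLK3, all 12 that were counted in both libraries were 2.05- to 2.59-fold higher. Row 10 (chromosome 15, 74912350 to 74914557, plus strand, 2208 bases) has the length of an exon of a retained-intron transcript and spans exons 3 and 4, which make up 314 of its bases. It had 322 reads with DMSO and 806 with BS008 (2.59-fold higher, 2.27 to 2.96), the largest fold of the gene. Its share of CLK3 reads was 11.4% (10.3 to 12.6%) and 12.9% (12.1 to 13.7%), a difference of 1.45 points whose interval (-0.02 to 2.86) includes 0. This differs from the row that spans exon 4 in CLK1, which held a smaller share with BS008.

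The second long row of CLK3, row 12 (74915961 to 74917359, 1399 bases, with exon 6), had 188 and 372 reads (2.05-fold higher, 1.71 to 2.45), the smallest fold of these rows. On either side of row 10, exon 2 (74911538 to 74911689) had 125 and 282 reads and exon 5 (74914835 to 74914901) had 68 and 154, and both were 2.34-fold higher. The row with the most reads per length was row 16 (exon 10, 74920311 to 74920393), with 57.3 and 131.1 RPKM. The last row (74922048 to 74922541) had 421 and 976 reads (2.40-fold higher, 2.14 to 2.70). The other rows of CLK3 called at 2-fold were those of exon 7 (row 13, 252 and 563 reads), exon 8 (row 14, 241 and 569), exon 9 (row 15, 392 and 905), exon 11 (row 17, 236 and 508) and exon 12 (row 18, 216 and 445), which were 2.13- to 2.44-fold higher. The first exon of the coding transcript, row 7, had 33 and 68 reads (2.13-fold higher, 1.39 to 3.34).

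In CLK4, 2 neighbouring long rows held a smaller share of the reads with BS008. Row 5 (chromosome 5, 178043883 to 178045779, minus strand, 1897 bases) has the length of an exon of a retained-intron transcript and spans exons 3, 4 and 5, with 381 exon bases. It had 256 reads with DMSO and 292 with BS008 (1.18-fold higher), with an interval (0.995 to 1.40) that includes no difference. Its share of CLK4 reads was 28.8% (25.9 to 31.8%) with DMSO and 22.4% (20.2 to 24.8%) with BS008, a difference of -6.35 points (-10.1 to -2.64). The direction was that of the corresponding row of CLK1. Against its 2 neighbours alone, however, it held 72.3% and 75.1%, since row 4 beside it differed by more.

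Row 4 of CLK4 (178046839 to 178047674, 836 bases) has the length of an exon that GENCODE lists only in transcripts subject to nonsense-mediated decay. It had 59 reads with DMSO and 27 with BS008, which is 2.11-fold lower (1.32 to 3.46). Its share was 6.63% (5.17 to 8.46%) and 2.07% (1.43 to 2.998%), a difference of -4.56 points (-6.50 to -2.83). It was the one row of CLK4 with at least 10 reads that was lower with BS008. Row 11 (41 bases), the other row with a length that GENCODE lists only in such a transcript, had 6 and 9 reads, which is too few for a comparison.

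The remaining rows of CLK4 with at least 10 reads had higher values with BS008, although the interval of exon 10 (row 10, 103 and 114 reads) included no difference. Exon 2 (row 2, 178050257 to 178050417) had 34 and 83 reads (2.53-fold higher, 1.68 to 3.89). Exon 6 (row 6), the next row after the long one, had 39 and 70 (1.86-fold higher, 1.24 to 2.82). The last exon (row 14, 178029665 to 178030758) had 82 and 199 reads (2.51-fold higher, 1.93 to 3.29), and its share of the gene was 9.21% (7.48 to 11.3%) with DMSO and 15.3% (13.4 to 17.3%) with BS008. Exon 11 (row 12, 178032304 to 178032383) had the most reads per length, with 24.3 and 38.3 RPKM.

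**Figure D4:**
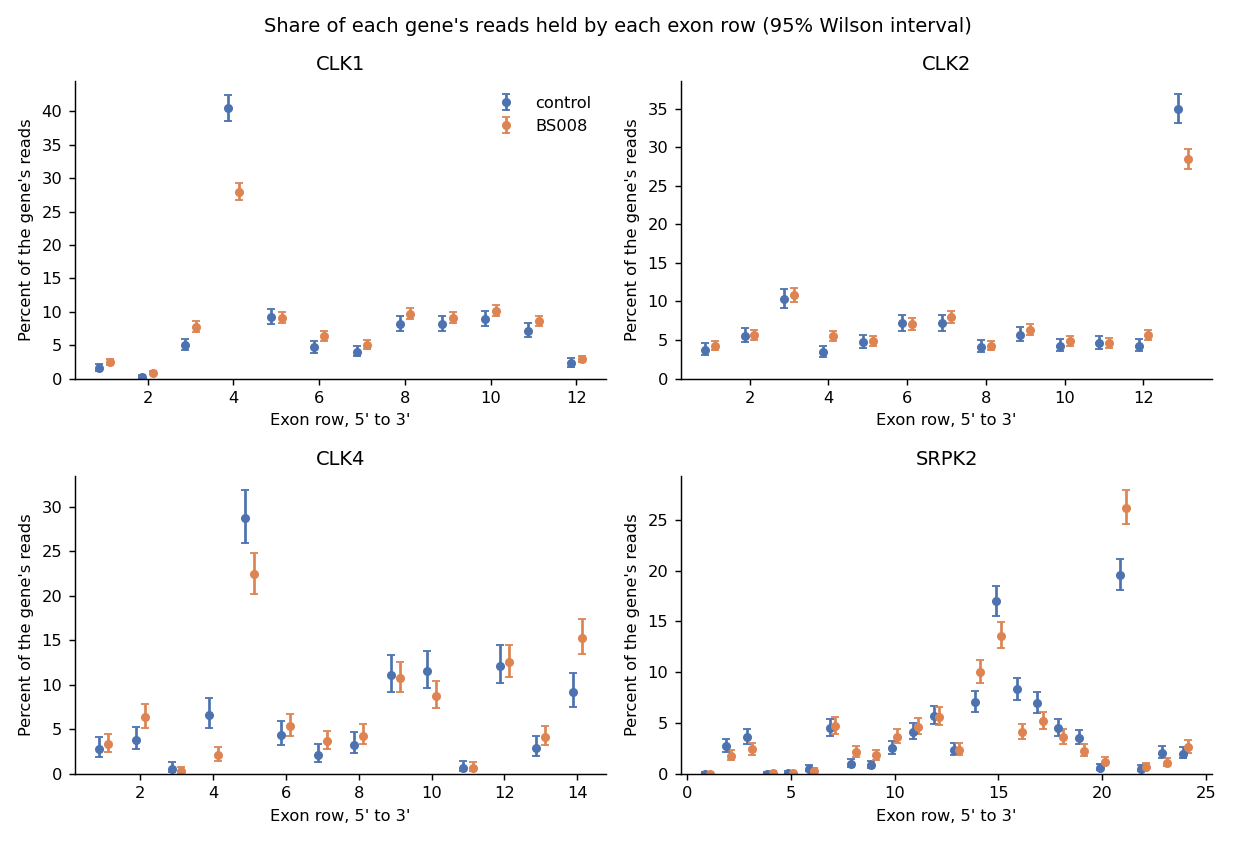
Percent of the reads of the gene (y axis) on each exon row from 5′ to 3′ (x axis) in control (blue) and BS008-treated cells (orange) for CLK1, CLK2, CLK4 and SRPK2, with 95% Wilson intervals. The rows that span exon 4 of CLK1 (row 4, 40.4 and 28.0%) and CLK4 (row 5, 28.8 and 22.4%) were lower with BS008, and exon 4 of CLK2 (row 4, 3.41 and 5.53%) was higher.

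SRPK1, which phosphorylates SR proteins before they enter the nucleus, was lower over its whole length. All 15 rows had a lower value with BS008, against 53.2% of all exons, and 9 of them by at least 1.5-fold. As rows of the same gene, they are not separate observations. Exon 4 of SRPK1 (row 3, chromosome 6, 35856592 to 35856700, minus strand) had 383 reads with DMSO and 189 with BS008, which is 1.96-fold lower (1.64 to 2.34) and the largest difference of the gene. The longest coding exon (row 10, exon 11, 35837259 to 35837678) had 962 and 513 reads (1.81-fold lower, 1.63 to 2.02).

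The 3′ rows of SRPK1 differed by less. Row 14 (exon 15, 35806114 to 35806206) had 150 and 130 reads (1.11-fold lower), with an interval (0.875 to 1.42) that included no difference, as did that of row 13 (exon 14, 101 and 74 reads). The share of row 14 in the gene was 1.66% (1.41 to 1.94%) and 2.35% (1.98 to 2.78%). The last row (35800812 to 35803265, 2454 bases) had 4047 and 2668 reads (1.46-fold lower, 1.39 to 1.54) and held 44.7% (43.6 to 45.7%) and 48.2% (46.8 to 49.5%) of the reads. The 26-base exon shown above (row 8, exon 9, 35838711 to 35838736) had 405 and 239 reads, or 280.8 and 171.6 RPKM, the highest RPKM values of the gene. How reads that cover such a short exon only in part were counted is not given in the sources used here, so its RPKM was not compared with that of longer exons.

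The small difference in the total of SRPK2 was the sum of rows that differed in both directions. The rows that were higher include exon 5 (row 8, chromosome 7, 104809604 to 104809712, minus strand), with 24 and 56 reads (2.42-fold higher, 1.47 to 4.08), and exon 6 (row 9, 104808455 to 104808542), with 21 and 48 (2.37-fold higher, 1.39 to 4.16). Exon 11 (row 14, 104783531 to 104783777) had 177 and 267 reads (1.56-fold higher, 1.29 to 1.90). Of these, exons 5 and 11 are among those that share stretches with SRPK2P.

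Of the exons further 3′ in SRPK2, exon 13 and row 19, taken as exon 16, were lower, with intervals that did not reach equality. Exon 13 (row 16, 104773451 to 104773551) had 209 reads with DMSO and 109 with BS008, which is 1.85-fold lower (1.46 to 2.36), and its share of the gene was 8.31% (7.30 to 9.46%) and 4.09% (3.40 to 4.91%). Exon 12 (row 15, 104782455 to 104782937) had 427 and 362 reads (1.14-fold lower), with an interval (0.988 to 1.31) that includes no difference, and its share of the gene was 16.98% (15.6 to 18.5%) and 13.6% (12.3 to 14.9%). Row 19 (104766695 to 104766787) had 89 and 61 (1.41-fold lower, 1.01 to 1.99). Row 20 (104766229 to 104766321, 93 bases), still further 3′, differed in the other direction, with 14 and 31 reads (2.29-fold higher, 1.18 to 4.66). Its length is that of row 19, so length does not settle which of these rows is exon 16. The exon of 101 bases with the same place in SRPK1 (row 11) had 227 and 133 reads, so it was lower in both genes. SRPK1 was lower as a whole, however, and this row held a similar share of it, 2.50% (2.20 to 2.85%) and 2.40% (2.03 to 2.84%).

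The 5′ rows 2 and 3 of SRPK2 had 69 and 47 and 91 and 64 reads, with fold intervals that include no difference. Both had fewer reads with BS008, while the total of the gene was slightly higher. Their shares of the gene differed by -0.98 points (-1.82 to -0.17) and -1.22 points (-2.17 to -0.29).

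The 3′ end of SRPK2 differed too. Row 21 (104756824 to 104758469, 1646 bases), which has the length of an exon that holds exon 17, had 492 and 698 reads (1.47-fold higher, 1.31 to 1.65) and held 19.6% (18.1 to 21.2%) and 26.2% (24.6 to 27.9%) of the reads. Row 23 (104754467 to 104755465) had 52 and 29 reads (1.73-fold lower, 1.08 to 2.83). The last row, 24 (104754025 to 104754437), had 50 and 70 (1.45-fold higher), with an interval of 0.994 to 2.13 that includes no difference. Rows 23 and 24 have the length of no exon that GENCODE lists for SRPK2, so their place in the gene is uncertain. The 26-base exon (row 13, exon 10, 104785730 to 104785755) had 60 and 63 reads, or 41.6 and 45.2 RPKM (1.09-fold higher, 0.751 to 1.57). These were the highest RPKM values of SRPK2, with the same limit as for the 26-base exon of SRPK1.

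The share of each row was also taken among its own reads and those of the nearest row on each side, within 10 kb on the same strand, which can be computed for the whole table. Of 73 rows of the 6 genes with at least 20 such reads in each library, 10 differed by at least 10 percentage points, against 5.98% of 98954 exons. They were rows 1, 3 and 4 of CLK1, rows 2 and 7 of CLK3, rows 2 and 4 of CLK4 and rows 14, 23 and 24 of SRPK2. The largest difference with at least 50 reads on the row was in row 23 of SRPK2, from 45.6 to 24.6%, and row 24 beside it went from 43.1 to 58.3%. Neither of these rows has the length of an exon that GENCODE lists for SRPK2. Row 4 of CLK1 went from 73.9 to 62.4%. Another 9 rows differed by 5 to 10 points, so that 19 passed 5 points, against 20.1% of all exons. Neighbouring rows move each other's shares, and row 1 of CLK1 and row 24 of SRPK2 have a row beyond their gene as neighbour. The 2 rows of CLK3 had 28 and 42 reads with their neighbours in the control library.

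The kinases were finally set beside other genes of SR protein phosphorylation and their substrates. Of 3 other kinases, DYRK1A was higher, with 1646 and 2756 reads (1.73-fold, 1.63 to 1.84). PRPF4B, a kinase that associates with the spliceosome, had 7108 and 4407 (1.56-fold lower, 1.5 to 1.62). Its rows had a median log2 ratio of -0.55, against -0.64 from the summed reads. SRPK3, the muscle relative of SRPK1 and SRPK2, had 26 and 22 reads, so that no difference was detectable at this depth (0.876-fold, 0.473 to 1.61). The rows of DYRK1A that were at least 2-fold higher numbered 1 of 11, against 3.73% of all exons. Of the 11 rows, 9 had a higher and 2 a lower value, against 46.8% and 53.2% of all exons. As rows of the same gene, they are not separate observations. Their median log2 ratio was 0.49, against 0.79 from the summed reads.

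AKT kinases act upstream of the SRPK proteins, and protein phosphatase 1 (PP1) removes phosphate from SR proteins. AKT2 had 8266 and 3976 reads (2.01-fold lower, 1.93 to 2.09) and AKT1 had 6293 and 4010 (1.52-fold lower, 1.46 to 1.58). AKT1 is near the 1.5-fold line, and its rows had a median log2 ratio of -0.55, against -0.60 from the summed reads. With TMM factors, 7 of the 20 genes set beside the kinases were at least 1.5-fold lower, in place of 8. The 3 genes for the catalytic subunits of PP1 stayed within 1.5-fold. PPP1CA was 0.948-fold (0.930 to 0.968), PPP1CB 0.775-fold (0.746 to 0.806) and PPP1CC 1.24-fold (1.21 to 1.27) its control value. Of the 10 rows of PPP1CB, 2 overlap another row and 50% had the length of a GENCODE exon of the gene. Their log2 ratios ran from -0.72 to 0.83.

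Of the 12 SR protein genes listed, 0 were at least 1.5-fold higher with BS008 and 5 were at least 1.5-fold lower, with a median log2 ratio of -0.53. The table lists exons rather than genes, so there is no share over all genes to read this count against. SRSF1, a founding member of the family, had 21923 and 6558 reads (3.23-fold lower, 3.14 to 3.32). SRSF2 had 17870 and 8285 (2.08-fold lower, 2.03 to 2.14) and SRSF5 had 6568 and 3175 (1.998-fold lower, 1.91 to 2.08). TRA2A, with 3778 and 2123 reads, was 1.72-fold lower (1.63 to 1.81), and TRA2B, with 13154 and 7226 reads, 1.76-fold lower (1.71 to 1.81). The median log2 ratio of the rows was -0.51 for TRA2A and -0.83 for TRA2B, against -0.78 and -0.81 from the summed reads. All 12 genes had a lower value with BS008, SRSF3 the least at -0.04 (log2). The total of SRSF3 joins rows of both directions, 5 of 7 lower and 2 higher, against 53.2% and 46.8% of all exons. Their ratios ran from -0.69 to 2.80 (log2 with the pseudocount). Among the exon rows of the list, 2 of 89 were at least 2-fold higher and 14 of 89 at least 2-fold lower, against 3.73% and 3.79% of all exons.

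**Figure D5:**
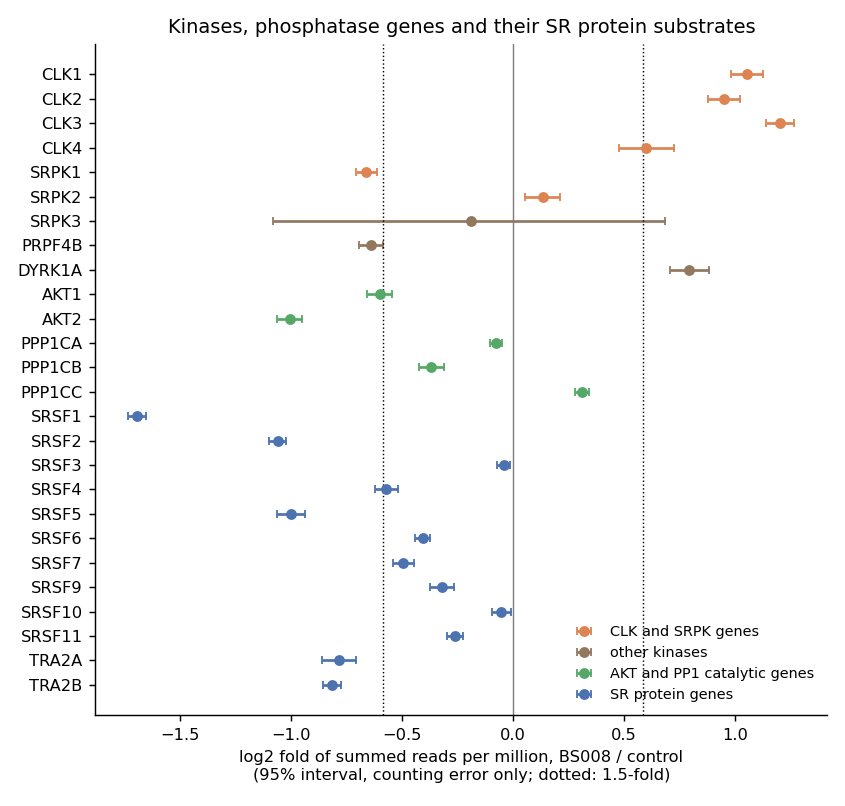
log2 fold of summed CPM in BS008 over control (x axis) for the CLK and SRPK genes, other kinases, AKT and PP1 catalytic genes and SR protein genes (y axis), with 95% exact intervals for counting error and dotted lines at 1.5-fold. CLK1, CLK2, CLK3 and CLK4 lie on or to the right of the upper line, and SRSF1 lies farthest to the left at -1.69.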

How the data were processed

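The RNA of Huh-7 cells was sequenced in 1 library per condition. For each, the authors deposited raw counts of reads per exon on hg19 (per the labels, from the submitters' processing notes) and RPKM values computed from them, which recomputation returned to within 4.7e-06. The aligner, counter, annotation, strand setting and read length are not given in the sources used here. Members are the exon rows inside fixed hg19 bounds of the 6 genes. Other genes were placed the same way, from bounds known for hg19, and kept where at least 50% of the rows had the length of a GENCODE release 29 exon of that gene. Exon numbers come from matching row lengths in order to a full-length transcript. No coordinates were converted, and sequences are those of GENCODE transcripts. The members, lists and thresholds were chosen with earlier results of these data known.

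Exon changes are log2 ratios of CPM + 0.5, for rows that reach 10 counts in 1 of the libraries. Gene values sum all rows, with exact (Clopper-Pearson) intervals for folds and Poisson intervals for RPKM. Shares have 95% Wilson intervals, and differences of shares Newcombe intervals. No test was made. The exons named by rule are, in each gene, the one with the most reads per length, the last one, those with the highest and lowest ratio to the gene among rows with at least 50 counts, those called at 2-fold or against their neighbours, and exon 4 of the CLK genes with its neighbours. The pathway genes named by rule are those past 1.5-fold. Other exons and genes described were chosen after their values were seen. Alternatives for library size, pseudocount, count minimum, thresholds, neighbour distance and the exons summed were tried. Scripts were tested on simulated data. Python 3.11.15, numpy 2.4.6, pandas 2.3.3, scipy 1.17.1, matplotlib 3.10.9 and edgeR 4.0.16 (TMM factors, R 4.3.3) were used.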

Additional observations from a re-analysis of the deposited data

How the results depend on the processing

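All 6 genes kept their direction under every alternative. With TMM factors, which shift all ratios by 0.05 (log2), SRPK1 was at -0.61 in place of -0.66. The median of the exon log2 ratios gave 1.16 for CLK1 (1.05 from the summed reads) and 1.07 for CLK3 (1.20), and the cause was not tested. Without the last exon, CLK2 was at 1.09 (0.95) and SRPK1 at -0.75. Without rows that span retained introns, an alternative added after the data were seen, CLK1 was at 1.33 and CLK3 at 1.19. CLK1 was thus above CLK3 in this setting and by the median, unlike in the summed reads. At 1.5-fold, 44 rows of the 6 genes were higher and 11 lower, in place of 22 and 0 at 2-fold. With a pseudocount of 0.1, 33 rows were at least 2-fold higher (8.73% of all exons), and with 1, 15 were (2.30%). Of 73 rows, 10 differed by at least 10 points against their neighbours, 19 differed by at least 5 points (20.1% of all exons), and 1 of 22 differed by 10 points with neighbours within 1 kb (5.14% of all exons, so the share of the 6 genes was not above it). The other 42 values for genes and counts moved by less than the counting interval or 1.5 times. The 8 shares of single exons kept their direction without the last exon. No paired analysis was possible because each condition has 1 library, and no replicate could be left out. Rows with few reads are limited by depth, and the variation between cultures was not measured.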
